A study of Mus musculus with 9 samples.

Results

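The genes described here are the Wnt ligands, their Frizzled, Lrp and Ror receptors, the secreted inhibitors of the Sfrp, Dkk and Wif families, the R-spondins and the feedback target Axin2. They were picked by gene symbol and number 48 of the 55367 symbols in the count table: 19 ligands, 14 receptors, 10 inhibitors, 4 R-spondins and Axin2. RNA of mouse left ventricle was sequenced in 3 MI+BPD, 3 MI and 3 sham libraries. MI+BPD is myocardial infarction with BPD treatment aimed at the proliferative phase of healing, MI is infarction without that treatment, and sham is the group labelled as such. Infarcted tissue was taken at day 14 and held the infarct core with its surroundings, which sham hearts do not have. The labels give no day for sham. The sources used here do not give strain, sex, age, the dose and schedule of BPD or what its letters stand for. Nothing says that each library is a separate animal, so the p-values measure the spread between libraries, which may be technical.

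Wnt proteins are secreted, lipid-modified ligands. In the canonical pathway a Wnt binds a Frizzled receptor together with Lrp5 or Lrp6, beta-catenin escapes degradation, and TCF/LEF factors switch on target genes, Axin2 among them. Other Wnts signal without beta-catenin through Frizzleds, Ror1 or Ror2. Sfrp proteins and Frzb carry a Frizzled-like cysteine-rich domain and bind Wnts outside the cell, Wif1 binds Wnts as well, and Dkk1, Dkk2 and Dkk4 bind Lrp5 and Lrp6. R-spondins act through Lgr receptors and keep Frizzleds at the cell surface. In the heart the pathway is known from development and from the activation of fibroblasts after injury.

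Total counts ran from 14451410 to 19269072 per library, and mitochondrial transcripts took 17.6% to 25.7% of them in MI+BPD, 11.4% to 18.2% in MI and 34.4% to 35.2% in sham. Levels are given in CPM, read counts scaled to a common library size by TMM (trimmed mean of M values). All markers of heart muscle used had reads. Their 10 genes summed to 38313 to 58584 CPM in MI+BPD, 22829 to 40182 CPM in MI and 103790 to 108150 CPM in sham. MI+BPD replicate 1 had the highest muscle sum of the infarcted libraries and MI replicate 3 the highest of the MI libraries. MI replicate 1 also stood apart with 38.7 CPM of 6 lymphocyte markers, against 1.66 to 6.43 CPM in the other libraries, and 56.7 CPM of 4 adipocyte markers, against at most 0.368 CPM. Calls that change without MI replicate 1 or MI+BPD replicate 1 are given with and without these libraries. In bulk tissue, fewer cells of a type and less RNA per cell cannot be told apart.

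Of the 48 genes 31 had enough reads to be tested: 9 ligands, 13 receptors, 7 inhibitors, 1 R-spondin and Axin2. Wnt3, Wnt3a, Wnt8a, Dkk4 and Rspo4 had no read in any library. The other 12 untested genes had at most 29 reads in a library: Wnt1, Wnt6, Wnt7a, Wnt7b, Wnt8b, Wnt9b, Wnt10a, Fzd10, Sfrp5, Dkk1, Rspo2 and Rspo3. Rspo3 had 8, 5 and 6 reads in the MI+BPD libraries, 29, 29 and 4 reads in the MI libraries and 0, 4 and 0 reads in the sham libraries. Sfrp5 had 22, 5 and 1 reads in MI+BPD, 1, 2 and 4 reads in MI and 5, 4 and 10 reads in sham. The reads of both thus varied widely within a group.

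The balance between the roles differed between infarcted and sham tissue. Levels per kilobase were divided by the length of all annotated exons of a gene, so that different genes can be roughly compared. The annotation used for counting is not named, and the transcripts present may be shorter than this length. On this scale the inhibitors summed to 465 ± 192 CPM per kb in MI+BPD, 589.9 ± 155 in MI and 9.71 ± 2.46 in sham (SD, n = 3 each). The receptors summed to 66.9 to 83.2 CPM per kb in the MI+BPD libraries, 73.7 to 91.9 in the MI libraries and 50.2 to 52.4 in the sham libraries. The ligands summed to 11.2 ± 2.14 CPM per kb in MI+BPD, 11.1 ± 2.61 in MI and 6.71 ± 0.795 in sham. Inhibitors therefore made up 82.4% ± 6.14 of the summed level of all 48 genes in MI+BPD, 85.2% ± 1.92 in MI and 14.0% ± 2.97 in sham. Receptors made up 14.8% ± 4.49 in MI+BPD, 12.7% ± 1.95 in MI and 74.5% ± 3.27 in sham. Sfrp2, Sfrp1, Frzb and Dkk3, singled out after their values were seen, held 74.3% to 86.4% of the sum in the MI+BPD libraries, 82.8% to 86.7% in the MI libraries and 10.5% to 12.3% in the sham libraries.

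**Figure D1:**
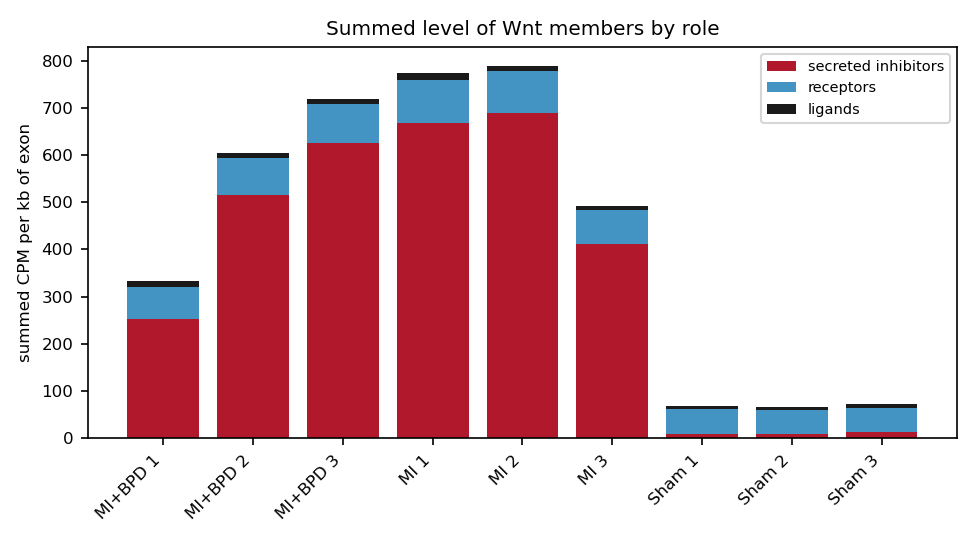
Summed level of the Wnt genes in each library, in TMM-scaled CPM per kilobase of exon, stacked by role (R-spondins and Axin2 are not drawn). Inhibitors reached 253 to 626 CPM per kb in the MI+BPD libraries and 411 to 690.1 in the MI libraries, against 8.19 to 12.5 in the sham libraries.

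MI against sham shows how the infarcted ventricle differed from heart without an infarct. Of the 31 genes tested 21 rose, 2 fell and 8 did not pass (edgeR quasi-likelihood test, adjusted p under 0.05). Over all 15138 genes tested 37.0% rose and 31.9% fell. Rises of at least 2-fold were found for 16 of the 31 genes, against 20.9% of all genes, and of at least 8-fold for 8, against 4.14%. The median log2 fold change was 1.49 over the 31 genes and 0.07 over all genes. By role, 6 of 7 inhibitors rose and 1 fell, 5 of 9 ligands rose, and 9 of 13 receptors rose and 1 fell. For 9 of the 31 genes the sham libraries alone did not reach the filter on low counts, so they were tested because of the infarcted libraries: Dkk2, Fzd9, Rspo1, Sfrp4, Wnt2, Wnt2b, Wnt4, Wnt10b and Wnt16. Of the other 22 genes 15 rose, 2 fell and 5 did not pass. Of the 9, Dkk2, Rspo1, Sfrp4, Wnt2, Wnt10b and Wnt16 are among the rises of at least 2-fold. Dkk2, Sfrp4 and Wnt16 are also among those of at least 8-fold. The median and the counts by role include these 9 genes as well. The shares over all genes were not restricted to genes that reach the filter in sham alone. With MI replicate 1 and MI+BPD replicate 1 left out together, 17 rose and 1 fell. For this fit the share over all genes is not given. With scaling by library totals alone, 29 were higher and 0 lower, while 85.6% of the calls over all genes were higher (53.6% with TMM) and the median of all genes was 0.81.

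**Figure D2:**
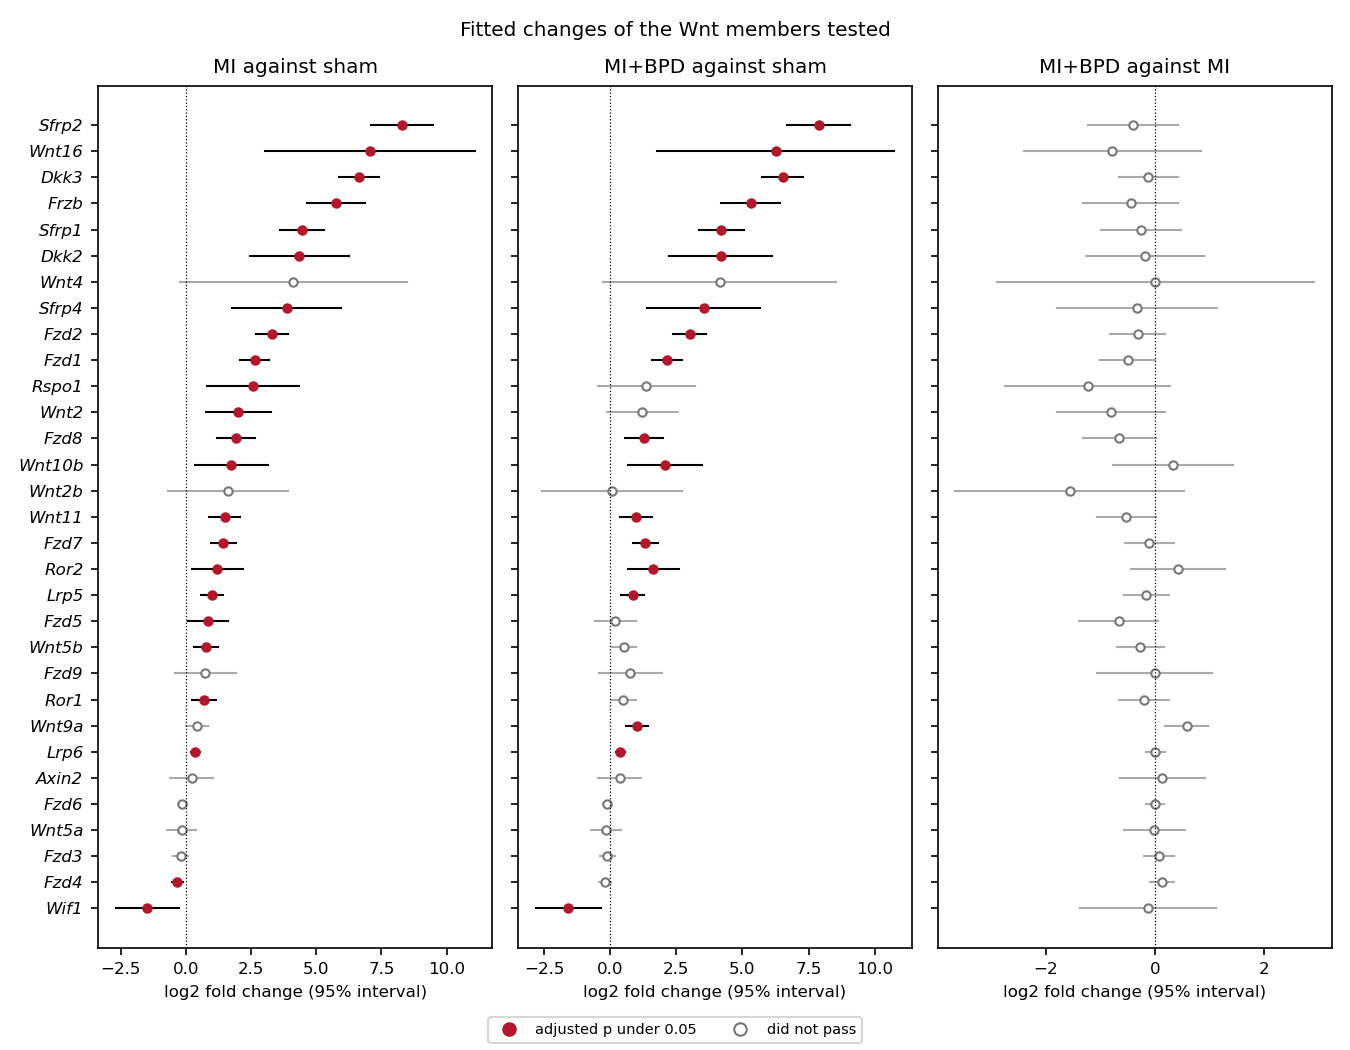
Log2 fold change with its 95% interval for the 31 tested genes in MI against sham, MI+BPD against sham and MI+BPD against MI, with called genes filled. Sfrp2 (8.28 and 7.88), Dkk3 (6.64 and 6.52) and Frzb (5.76 and 5.31) lie far right of 0 in both comparisons with sham, the changes of Fzd3, Fzd4, Fzd6 and Wnt5a in MI against sham lie left of 0 here but right of it with scaling by library totals alone, and the fitted change of Wnt16, which had no sham read, is not a bound.

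Among genes with reads in every sham library the secreted inhibitors Sfrp2, Dkk3, Frzb and Sfrp1 had the largest rises. Sfrp2, a Wnt-binding protein of fibroblasts, stood at 292, 612 and 771 CPM in the MI+BPD libraries, 822, 889 and 499.7 CPM in the MI libraries and 1.46, 1.92 and 3.58 CPM in the sham libraries. It was close to 0 in sham and far above that in every infarcted library, with MI+BPD replicate 1 and MI replicate 3 the lowest of their groups. Its log2 fold change in MI against sham was 8.28 ± 0.53 (SE, edgeR adjusted p = 8.8e-06). Sfrp1, a Wnt-binding relative of Sfrp2, stood at 235, 360.4 and 489.7 CPM in the MI+BPD libraries, 545, 513 and 240.3 CPM in the MI libraries and 17.4, 20.03 and 21.8 CPM in the sham libraries. The infarcted and sham libraries did not overlap, and the same 2 infarcted libraries were the lowest of their groups. Sfrp1 rose with a log2 fold change of 4.45 ± 0.38 (SE, edgeR adjusted p = 3.0e-05).

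Frzb, also known as Sfrp3, stood at 70.2, 229.8 and 254 CPM in the MI+BPD libraries, 285, 275 and 192 CPM in the MI libraries and 5.40, 4.20 and 4.35 CPM in the sham libraries. The sham libraries lay close together, all infarcted libraries were far above them, and MI+BPD replicate 1 was the lowest infarcted one. Frzb rose with a log2 fold change of 5.76 ± 0.50 (SE, edgeR adjusted p = 3.2e-05). Dkk3, a Dickkopf relative whose part in Wnt signalling is less clear than that of Dkk1, stood at 127, 260.0 and 255 CPM in the MI+BPD libraries, 239.7, 246 and 211 CPM in the MI libraries and 2.47, 1.66 and 2.82 CPM in the sham libraries. The MI libraries were close to each other and none overlapped with sham. Dkk3 rose with a log2 fold change of 6.64 ± 0.34 (SE, edgeR adjusted p = 5.2e-06).

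Per kilobase, the order of these inhibitors in MI was Sfrp2 (342 ± 96.7 CPM per kb), Sfrp1 (99.0 ± 38.3), Frzb (77.5 ± 15.7) and Dkk3 (69.2 ± 5.56; SD, n = 3). Sfrp2 lay above Sfrp1 by more than both SDs together, whereas Sfrp1 and Frzb, and Frzb and Dkk3, did not differ beyond their spread. In sham Sfrp1 was first at 4.51 ± 0.509 CPM per kb, against 1.44 ± 0.202 for Frzb, 1.08 ± 0.518 for Sfrp2 and 0.690 ± 0.177 for Dkk3. Wif1 averaged 1.63 ± 1.39 CPM per kb in sham, a mean that rests on replicate 3 with 7.85 CPM, against 2.01 CPM in each of the other sham libraries, so its place in this order was not fixed. All 10 fibroblast markers rose in the same comparison with a median log2 fold change of 2.98. They summed to 16829 to 18417 CPM in MI+BPD, 12342 to 17045 CPM in MI and 1141 to 1295 CPM in sham, and none was at 0. Their part in the rise of the inhibitors was not tested.

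The bases from 250 before to 50 after the annotated start are shown for Sfrp2 and Frzb, which had some of the largest rises, and for Axin2, a standard TCF/LEF target that did not pass in any comparison. They are RefSeq sequences of build GRCm38.p6, read 5′ to 3′ on the strand of the gene, and do not come from the sequenced hearts. Sfrp2 lies on the plus strand (chr3:83766071-83766370), Frzb on the minus strand (chr2:80447347-80447646) and Axin2 on the plus strand (chr11:108920099-108920398). Capitals mark the TCF/LEF core CTTTGA, searched on both strands, where its reverse complement reads TCAAAG.
Sfrp2: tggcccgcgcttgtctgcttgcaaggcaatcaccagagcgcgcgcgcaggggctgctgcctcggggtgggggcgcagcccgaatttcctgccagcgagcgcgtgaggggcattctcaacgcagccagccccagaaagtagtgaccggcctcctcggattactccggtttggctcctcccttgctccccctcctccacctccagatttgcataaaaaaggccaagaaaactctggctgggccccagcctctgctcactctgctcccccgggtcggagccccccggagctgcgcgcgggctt
Frzb: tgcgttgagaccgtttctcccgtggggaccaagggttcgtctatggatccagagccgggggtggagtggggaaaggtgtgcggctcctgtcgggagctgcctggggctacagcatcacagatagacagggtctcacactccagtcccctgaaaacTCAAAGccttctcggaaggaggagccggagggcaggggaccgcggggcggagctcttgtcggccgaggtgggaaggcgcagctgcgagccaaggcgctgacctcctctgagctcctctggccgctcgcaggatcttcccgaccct
Axin2: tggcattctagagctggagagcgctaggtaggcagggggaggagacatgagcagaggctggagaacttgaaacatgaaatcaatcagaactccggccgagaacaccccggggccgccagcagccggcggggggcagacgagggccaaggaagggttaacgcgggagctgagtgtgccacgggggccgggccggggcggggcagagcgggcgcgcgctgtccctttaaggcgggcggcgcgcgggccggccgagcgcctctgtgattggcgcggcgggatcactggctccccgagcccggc
The Frzb window held the core once, on the opposite strand with its first base 95 bases before the start, and the windows of Sfrp2 and Axin2 did not hold it. RefSeq windows were matched for 32 of the 48 genes. The core was found in 6 of their 35 windows (17.1%) and in 16% of all 32851 windows. These matches describe letters only.

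Inhibitors at lower levels moved in both directions. Sfrp4, a further Wnt-binding Sfrp, stood at 7.01, 1.33 and 1.78 CPM in the MI+BPD libraries, 7.80, 2.81 and 1.93 CPM in the MI libraries and 0.274, 0.262 and 0.305 CPM in the sham libraries. All infarcted libraries were above sham, and replicate 1 was the highest of both infarcted groups. Its log2 fold change in MI was 3.87 ± 0.93 (SE, edgeR adjusted p = 0.00468), and 3.05 without MI replicate 1. Dkk2, a ligand of Lrp5 and Lrp6, stood at 1.86, 0.616 and 0.965 CPM in the MI+BPD libraries, 1.43, 1.55 and 0.874 CPM in the MI libraries and 0, 0.175 and 0 CPM in the sham libraries. Only 2 sham reads were found, both in replicate 2. The ratio of MI to sham was 23.1 (95% exact binomial interval 6.21 to 193), and the fitted change passed (edgeR adjusted p = 0.00141). Without sham replicate 2 Dkk2 was at least 10.4-fold higher in MI, against a floor of 3 reads over the sham group, and without sham replicate 3 its fitted log2 fold change was 3.75. Such intervals and floors cover counting error only.

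Wif1, a secreted Wnt-binding factor, was the inhibitor that fell. It stood at 1.56, 1.44 and 0.965 CPM in the MI+BPD libraries, 1.66, 0.896 and 1.75 CPM in the MI libraries and 2.01, 2.01 and 7.85 CPM in the sham libraries. Sham replicate 3 was far above the other sham libraries, which lay just above the infarcted ones. The log2 fold change in MI was -1.48 ± 0.53 (SE, edgeR adjusted p = 0.0322), but -0.49 without sham replicate 3 (adjusted p = 0.258). The call also ended without MI replicate 1 (0.0548) or 2 (0.104), without MI replicate 1 and MI+BPD replicate 1 together (0.0514), with no filter on low counts (0.0706) and with scaling by library totals alone (0.196).

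**Figure D3:**
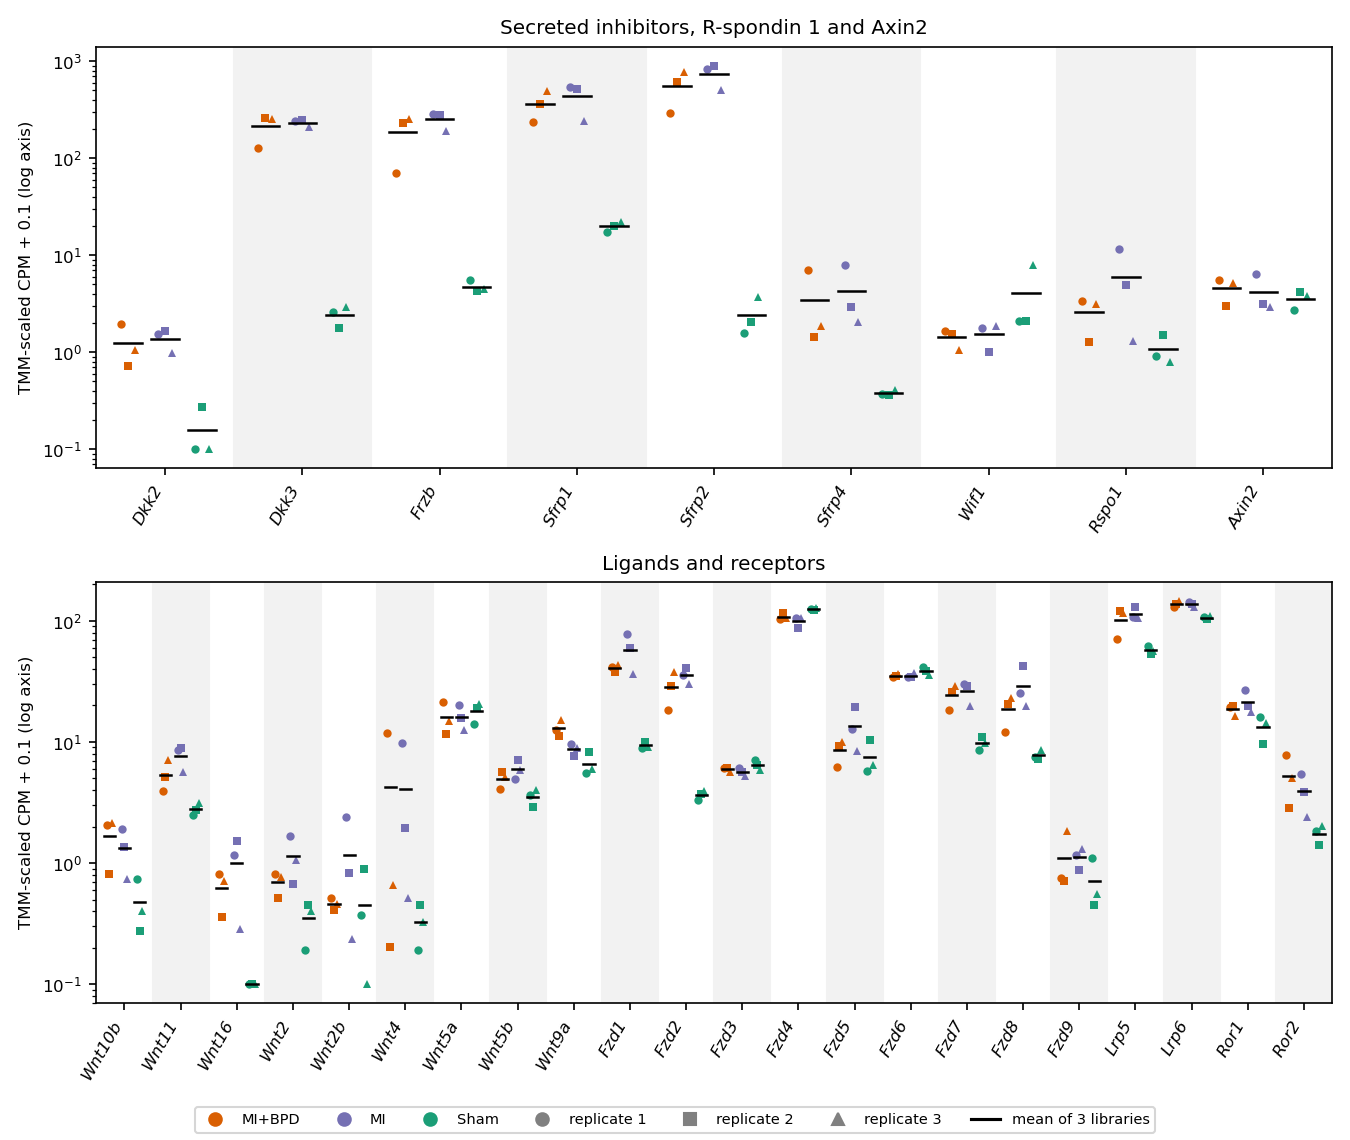
Level of the 31 tested genes in each library, in TMM-scaled CPM plus 0.1 on a log axis, with colours for groups, symbols for replicates and a bar for the mean of 3 libraries. Sfrp2 (292 to 771 CPM in MI+BPD and 499.7 to 889 CPM in MI, against 1.46 to 3.58 CPM in sham), Sfrp1, Frzb and Dkk3 separate infarcted from sham libraries most widely, while the libraries of Axin2 and Wnt5a overlap.

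Among the receptors Fzd2 and Fzd1 had the largest rises. Fzd2 stood at 18.3, 29.1 and 37.9 CPM in the MI+BPD libraries, 35.7, 40.7 and 29.7 CPM in the MI libraries and 3.20, 3.59 and 3.81 CPM in the sham libraries. No infarcted library overlapped with sham, and MI+BPD replicate 1 was the lowest of them. Fzd2 rose with a log2 fold change of 3.32 ± 0.27 (SE, edgeR adjusted p = 2.6e-05). Fzd1 stood at 41.6, 37.5 and 43.2 CPM in the MI+BPD libraries, 77.2, 59.8 and 36.0 CPM in the MI libraries and 8.87, 9.97 and 8.996 CPM in the sham libraries. Its MI libraries were spread widely, and the MI+BPD libraries lay close together in the lower part of their range. Fzd1 rose with a log2 fold change of 2.64 ± 0.25 (SE, edgeR adjusted p = 4.4e-05).

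Fzd7, a Frizzled of many mesenchymal cells, stood at 18.1, 25.8 and 28.6 CPM in the MI+BPD libraries, 29.9, 28.7 and 19.6 CPM in the MI libraries and 8.42, 10.8 and 9.76 CPM in the sham libraries. Fzd8 stood at 11.9, 20.5 and 23.0 CPM in the MI+BPD libraries, 25.5, 41.9 and 19.7 CPM in the MI libraries and 7.41, 7.17 and 8.46 CPM in the sham libraries. For both receptors all infarcted libraries were above sham, and MI+BPD replicate 1 was the lowest of them. Fzd7 rose with a log2 fold change of 1.43 ± 0.21 (SE, edgeR adjusted p = 3.3e-04) and Fzd8 with one of 1.91 ± 0.32 (SE, edgeR adjusted p = 6.0e-04). Fzd5 ranged from 6.05 to 9.95 CPM in MI+BPD, 8.28 to 19.2 CPM in MI and 5.67 to 10.2 CPM in sham. Its rise of 0.85 ± 0.34 (SE, edgeR adjusted p = 0.0455) came with overlapping libraries and ended in 10 of 20 alternative fits. Among these were the fits without sham replicate 1 (adjusted p = 0.149) or 3 (0.140), MI replicate 1 (0.0717) or 2 (log2 fold change 0.50, 0.192), and MI+BPD replicate 2 (0.0611) or 3 (0.0570).

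Fzd4, a Frizzled of endothelial cells that also binds norrin, was the most abundant Frizzled per kilobase in sham. It averaged 16.1 ± 1.14 CPM per kb in MI+BPD, 14.8 ± 1.65 in MI and 18.5 ± 0.328 in sham (SD, n = 3 each). Fzd4 fell in MI with a log2 fold change of -0.33 ± 0.10 (SE, edgeR adjusted p = 0.0126), but was higher with scaling by library totals alone (0.40, adjusted p = 0.00873). Of 8 blood endothelial markers 5 fell and 0 rose. They summed to 847 to 1018 CPM in MI+BPD, 749 to 1013 CPM in MI and 1213 to 1474 CPM in sham, none was at 0, and their part in the change of Fzd4 was not tested.

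Fzd6 followed Fzd4 in sham with 7.31 ± 0.1998 CPM per kb in MI+BPD, 7.29 ± 0.309 in MI and 8.003 ± 0.573 in sham, and its log2 fold change in MI was -0.14 ± 0.07 (SE, edgeR adjusted p = 0.129). In MI the order of the Frizzleds was Fzd4, Fzd1 (13.7 ± 4.93 CPM per kb, against 2.21 ± 0.143 in sham), Fzd2 (9.66 ± 1.51, against 0.965 ± 0.0842), Fzd6 and Fzd7 (5.75 ± 1.25, against 2.13 ± 0.269). Fzd4 and Fzd1 did not differ beyond their spread there, nor did Fzd1 and Fzd2, nor Fzd6 and Fzd7. Fzd3 and Fzd9 were low throughout, with log2 fold changes of -0.20 ± 0.12 (SE, edgeR adjusted p = 0.178) and 0.75 ± 0.52 (SE, edgeR adjusted p = 0.225). Fzd6 and Fzd3 were at 0.60 and 0.54 with scaling by library totals alone and then passed (adjusted p = 3.3e-04 and 0.0104), and Fzd9 also passed there (1.47, 0.0254).

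The co-receptors Lrp5 and Lrp6, which pair with Frizzleds in canonical signalling, had smaller rises. Lrp5 stood at 70.1, 119.7 and 117 CPM in the MI+BPD libraries, 107, 129.8 and 105 CPM in the MI libraries and 61.5, 53.4 and 56.6 CPM in the sham libraries. Lrp6 stood at 131, 137 and 145 CPM in the MI+BPD libraries, 143, 138 and 129 CPM in the MI libraries and 107, 103 and 108 CPM in the sham libraries. All infarcted libraries were above all sham libraries for both, and MI+BPD replicate 1 was the lowest infarcted library for Lrp5. The log2 fold change in MI was 0.995 ± 0.19 (SE, edgeR adjusted p = 0.00122) for Lrp5 and 0.37 ± 0.08 (SE, edgeR adjusted p = 0.00215) for Lrp6.

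Ror2, a receptor of Wnt5a, stood at 7.73, 2.77 and 4.93 CPM in the MI+BPD libraries, 5.34, 3.79 and 2.30 CPM in the MI libraries and 1.74, 1.31 and 1.91 CPM in the sham libraries. Replicate 1 was the highest in both infarcted groups, and no infarcted library overlapped with sham. Ror2 rose with a log2 fold change of 1.203 ± 0.43 (SE, edgeR adjusted p = 0.0318). This call ended without sham replicate 1 (adjusted p = 0.0714), 2 (0.102) or 3 (0.0595), without MI replicate 1 (0.116) or 2 (0.0614), and without MI replicate 1 and MI+BPD replicate 1 together (0.0528). Ror1, its relative, ranged from 16.3 to 19.9 CPM in MI+BPD, 17.5 to 26.8 CPM in MI and 9.45 to 15.9 CPM in sham. Ror1 rose with a log2 fold change of 0.69 ± 0.21 (SE, edgeR adjusted p = 0.0146), a call that ended without MI replicate 1 (0.0511) and without MI replicate 1 and MI+BPD replicate 1 together (0.0533).

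Ligands were the lowest of the 3 large roles per kilobase in the infarcted groups and in sham. Wnt5a, a ligand of non-canonical signalling, led them in sham with 2.03 ± 0.640 CPM per kb in MI+BPD, 2.04 ± 0.491 in MI and 2.28 ± 0.431 in sham. In sham it did not differ from Wnt9a (1.95 ± 0.454) beyond their spread. The log2 fold change of Wnt5a in MI was -0.16 ± 0.25 (SE, edgeR adjusted p = 0.583), with overlapping libraries, and 0.59 with scaling by library totals alone (adjusted p = 0.0488). Wnt11, a ligand known from heart development, stood at 3.83, 5.03 and 6.96 CPM in the MI+BPD libraries, 8.43, 8.75 and 5.57 CPM in the MI libraries and 2.38, 2.62 and 3.05 CPM in the sham libraries. All infarcted libraries lay above sham, with MI+BPD replicate 1 the lowest. Wnt11 rose with a log2 fold change of 1.49 ± 0.26 (SE, edgeR adjusted p = 7.9e-04). Wnt5b, a relative of Wnt5a, ranged from 4.01 to 5.54 CPM in MI+BPD, 4.87 to 7.04 CPM in MI and 2.80 to 3.89 CPM in sham and rose with one of 0.78 ± 0.20 (SE, edgeR adjusted p = 0.00674).

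Wnt2 stood at 0.719, 0.411 and 0.660 CPM in the MI+BPD libraries, 1.58, 0.570 and 0.967 CPM in the MI libraries and 0.0915, 0.350 and 0.305 CPM in the sham libraries. Both infarcted groups lay above sham, and MI replicate 1 was the highest library. Wnt2 rose in MI with a log2 fold change of 2.02 ± 0.55 (SE, edgeR adjusted p = 0.00889). Wnt10b, a canonical ligand, stood at 1.98, 0.719 and 2.03 CPM in the MI+BPD libraries, 1.82, 1.26 and 0.644 CPM in the MI libraries and 0.640, 0.175 and 0.305 CPM in the sham libraries. The lowest MI library was barely above the highest sham library. Wnt10b rose with a log2 fold change of 1.74 ± 0.62 (SE, edgeR adjusted p = 0.0309). That call ended without sham replicate 2 (adjusted p = 0.104) or 3 (0.0955), without MI replicate 1 (0.0989) or 2 (0.0600), and without MI replicate 1 and MI+BPD replicate 1 together (0.1001). Wnt16 had 29 reads over the MI+BPD libraries (12, 5 and 12), 66 over the MI libraries (27, 35 and 4) and 0 over the sham libraries. MI replicate 3 was thus far below the other MI libraries. With the libraries of a group pooled, Wnt16 was at least 10.9-fold higher in MI than in sham, against a floor of 3 reads over the group. Its fitted change passed (edgeR adjusted p = 0.00776).

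Wnt4, Wnt2b and Rspo1 varied widely within MI, and Wnt4 also within MI+BPD. Wnt4 and Wnt2b were singled out after their values were seen. Wnt4, a ligand known from kidney development, stood at 11.7, 0.103 and 0.559 CPM in the MI+BPD libraries, 9.78, 1.83 and 0.414 CPM in the MI libraries and 0.0915, 0.350 and 0.229 CPM in the sham libraries. Replicate 1 of both infarcted groups was far above all other libraries. Its log2 fold change in MI was 4.12 ± 1.94 (SE, edgeR adjusted p = 0.0838). Wnt4 passed without MI+BPD replicate 1 (adjusted p = 0.0235), without MI replicate 1 and MI+BPD replicate 1 together (2.29, 0.0430), with the replicate number as a block (0.0310), with scaling by library totals alone (0.0492) and in DESeq2 (0.0215).

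Rspo1, a secreted enhancer of Wnt signals, stood at 3.23, 1.18 and 3.05 CPM in the MI+BPD libraries, 11.4, 4.84 and 1.197 CPM in the MI libraries and 0.823, 1.40 and 0.686 CPM in the sham libraries. MI replicate 1 was the highest library, and MI replicate 3 lay within the range of sham. Rspo1 rose with a log2 fold change of 2.59 ± 0.78 (SE, edgeR adjusted p = 0.0147). The call ended without MI replicate 1 (1.65, adjusted p = 0.0576), without sham replicate 1 (0.0513) or 3 (0.0577), without MI replicate 1 and MI+BPD replicate 1 together (0.0602) and with no filter on low counts (0.0658). Wnt2b stood at 0.419, 0.308 and 0.356 CPM in the MI+BPD libraries, 2.30, 0.733 and 0.138 CPM in the MI libraries and 0.274, 0.787 and 0 CPM in the sham libraries. MI replicate 1 was again the highest, and the groups overlapped. Its log2 fold change in MI was 1.62 ± 1.02 (SE, edgeR adjusted p = 0.184), and 2.12 without MI replicate 3 (0.0489).

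The 7 epicardial and mesothelial markers summed to 103, 13.6 and 26.2 CPM in the MI+BPD libraries, 231, 52.4 and 12.7 CPM in the MI libraries and 15.0, 29.0 and 22.6 CPM in the sham libraries. All 7 had reads in every library. The highest sums were in replicate 1 of both infarcted groups, the libraries with the most Wnt4. Within MI the sums had the same order as Wnt4, Rspo1 and Wnt2b. The order was also the same within MI+BPD, but replicates 1 and 3 were close for Rspo1 (3.23 and 3.05 CPM) and Wnt2b (0.419 and 0.356 CPM). Wnt2b in MI+BPD replicate 1 was below sham replicate 2 (0.787 CPM). Sfrp4, Ror2, Axin2 and Wnt5a also followed the order of the sums within MI and within MI+BPD. The order was thus not particular to Wnt4, Rspo1 and Wnt2b. Within sham the order held for Wnt4 but not for Rspo1 and Wnt2b, which were lowest in replicate 3. Only 1 of the 7 markers passed in MI against sham (edgeR adjusted p = 0.0438). Their part in the values of Wnt4, Rspo1 and Wnt2b was not tested.

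**Figure D4:**
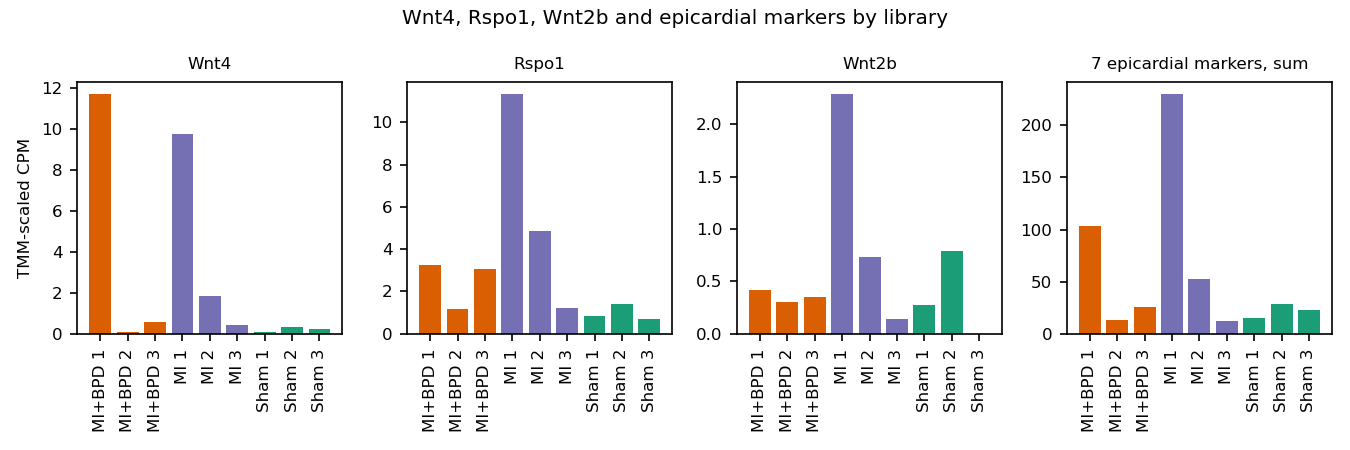
Level of Wnt4, Rspo1 and Wnt2b and the summed level of 7 epicardial and mesothelial markers in each library, in TMM-scaled CPM, with 1 bar per library. Wnt4 reached 11.7 CPM in MI+BPD replicate 1 and 9.78 CPM in MI replicate 1, where the marker sums were 103 and 231 CPM.

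Axin2, which canonical signalling switches on as its own brake, stood at 5.39, 2.93 and 5.08 CPM in the MI+BPD libraries, 6.25, 3.05 and 2.81 CPM in the MI libraries and 2.65, 4.02 and 3.74 CPM in the sham libraries. The groups overlapped, and MI replicate 1 was the highest library. Its log2 fold change in MI against sham was 0.22 ± 0.36 (SE, edgeR adjusted p = 0.606), with a 95% interval of -0.59 to 1.03. Axin2 was at -0.24 without MI replicate 1 (adjusted p = 0.494) and at 0.98 with scaling by library totals alone, where it passed (0.0320).

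Other genes of the pathway were described with lists written with earlier results of these data known, 86 genes of which 77 were tested. In MI against sham 38 rose and 18 fell, with a median log2 fold change of 0.20 beside 0.07 over all genes. The share that rose was 49.4%, against 37.0% of all genes, and 31.9% of all genes fell, a background that also stands beside the counts of each list that follows. With scaling by library totals alone 64 were higher and 4 lower, so at most 4 of the 18 falls held there. Of 12 commonly cited canonical targets 9 rose and 1 fell, with a median of 2.09. Ccn5, a matricellular protein also called Wisp2, averaged 215 ± 104 CPM in MI+BPD, 331 ± 86.0 CPM in MI and 4.13 ± 0.721 CPM in sham (SD, n = 3 each) and rose with a log2 fold change of 6.32 ± 0.46 (SE, edgeR adjusted p = 1.5e-05). Ccn4, also called Wisp1, rose by 4.70 ± 0.41 and Nkd2, an inhibitor of Dishevelled, by 4.59 ± 0.47 on the same scale. The target that fell was Tnfrsf19, at -1.69 ± 0.35, and Ccnd1 and Znrf3 did not pass.

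Among other secreted modulators 9 of 11 rose and 1 fell, with a median log2 fold change of 2.60. Cthrc1, a secreted protein of activated fibroblasts that is also on the fibroblast marker list, averaged 106 ± 30.7 CPM in MI+BPD, 141 ± 31.0 CPM in MI and 0.245 ± 0.146 CPM in sham and rose by 9.08 ± 0.42 (SE). Serpinf1, a secreted serpin, rose by 3.94 ± 0.21, and Adgra2, a receptor that works with Reck in Wnt7 signalling, by 2.13 ± 0.13. Of 4 genes for secretion and processing of Wnts 2 rose and 2 fell, with a median of 0.41. Wls, the carrier that takes Wnts to the cell surface, rose by 1.16 ± 0.13, Porcn, the enzyme that attaches their lipid, rose by 1.07 ± 0.26, and Trabd2b, a protease that cleaves Wnts, was at -1.26 ± 0.17. Among 5 genes of receptor turnover 1 rose and 3 fell, with a median of -0.28. Lgr6 and Lgr4, receptors of R-spondins, fell with log2 fold changes of -1.72 ± 0.26 and -0.53 ± 0.13. Lgr5, also such a receptor, rose by 3.53 ± 1.04 (SE, edgeR adjusted p = 0.0129). It was low and widely spread, with 1.02 ± 1.19 CPM in MI+BPD, 2.34 ± 1.79 CPM in MI and 0.197 ± 0.0975 CPM in sham (SD). In MI+BPD against sham it did not pass (edgeR adjusted p = 0.106). Lgr5 is also counted among the canonical targets.

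Of 17 cytoplasmic genes of the canonical pathway 3 rose and 3 fell, with a median log2 fold change of -0.06. Gsk3a, a kinase that marks beta-catenin for degradation, was at -0.52 ± 0.08, Csnk1d, a casein kinase, at 0.43 ± 0.07 and Amer1, a scaffold of the destruction complex, at 0.64 ± 0.11, all past the threshold. Ctnnb1, which encodes beta-catenin, averaged 462 ± 27.5 CPM in MI+BPD, 470.4 ± 34.3 CPM in MI and 423 ± 15.5 CPM in sham and did not pass (edgeR adjusted p = 0.233). Of 13 nuclear factors 7 rose (53.8%) and 3 fell, with a median of 0.24. The co-repressor Tle3 rose by 1.32 ± 0.12, the TCF factor Tcf7l1 rose by 0.87 ± 0.13, and Pygo1, a co-activator of beta-catenin, was at -0.95 ± 0.13, a fall. Of 19 genes of planar polarity and the non-canonical arm 10 rose (52.6%) and 5 fell, with a median of 0.21, among them Nfatc4 (2.44 ± 0.16), Ptk7 (2.88 ± 0.21) and Vangl2 (1.44 ± 0.22).

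MI+BPD against MI bears on the question stated for the series, whether BPD treatment goes together with less activation of fibroblasts. Of the 31 genes 0 passed in edgeR, and of all 15138 genes 0.00% passed. At an unadjusted p under 0.05 there were 2 of the 31 genes, Wnt9a and Fzd1, and 13.5% of all genes. DESeq2 called 0 of the 31 genes, and over all genes 21 higher and 30 lower. Limma-voom with quality weights called Wnt9a higher (0.71, adjusted p = 0.0395) and Fzd1 lower (-0.56, 0.0438), and over all genes 820 higher and 243 lower. Of the 77 other pathway genes tested edgeR called 0, with 6 at an unadjusted p under 0.05.

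Wnt9a, a ligand outside the naming rule that was singled out after its values were seen, stood at 12.5, 11.2 and 15.2 CPM in the MI+BPD libraries, 9.54, 7.49 and 8.88 CPM in the MI libraries and 5.40, 8.22 and 5.87 CPM in the sham libraries. All MI+BPD libraries were above all MI libraries, whereas MI and sham overlapped. The log2 fold change in MI+BPD against MI was 0.58 ± 0.18 (SE, edgeR adjusted p = 0.369), with a 95% interval of 0.19 to 0.98. Fzd1, whose libraries are given above, had a log2 fold change of -0.50 ± 0.22 (SE, edgeR adjusted p = 0.369), and the groups overlapped through MI replicate 3. Without MI replicate 3 Fzd1 was at -0.75 (adjusted p = 0.0334), and edgeR then called 1126 genes higher and 227 lower.

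The leading inhibitors did not pass, and their intervals were wide. The log2 fold change in MI+BPD against MI was -0.40 ± 0.37 for Sfrp2 (95% interval -1.22 to 0.42) and -0.26 ± 0.32 for Sfrp1 (-0.99 to 0.47). It was -0.44 ± 0.39 for Frzb (-1.31 to 0.43) and -0.12 ± 0.24 for Dkk3 (-0.67 to 0.43), with SE after each ±. These intervals include 0 and also include values at or below -0.67, so they do not show that the groups were alike. All 7 inhibitors had a fitted change below 0, as had 22 of the 31 genes and 49.3% of all genes. Inhibitors below 0 numbered 6 of 7 without MI+BPD replicate 1 or 3 or MI replicate 3, and 5 of 7 without MI+BPD replicate 2 or MI replicate 1. Of the 31 genes 18 were below 0 without MI replicate 1 or MI+BPD replicate 2. Without MI+BPD replicate 1 and MI replicate 1 together 4 of 7 inhibitors and 19 of 31 genes were below 0, and Sfrp2 was at -0.02, Sfrp1 at 0.16, Frzb at 0.03 and Dkk3 at 0.16. Of the fibroblast markers 0 of 10 passed, with a median log2 fold change of 0.06. Of the cardiomyocyte markers 0 of 10 passed, with a median of 0.64 and 7 at an unadjusted p under 0.05, and their part in the values of the Wnt genes was not tested.

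Among the receptors the fitted changes in MI+BPD against MI ran from -0.67 for Fzd5 (95% interval -1.40 to 0.06) to 0.42 for Ror2 (-0.44 to 1.28). Lrp6 was the most narrowly bounded of the co-receptors, at 0.01 ± 0.08 (SE, 95% interval -0.16 to 0.18), and Fzd6 was at 0.00 ± 0.07 (-0.16 to 0.17). Among the ligands Wnt2b had the lowest fitted change, -1.56 ± 0.93 (-3.65 to 0.54). Axin2 was at 0.14 ± 0.34 (-0.64 to 0.91). Without MI+BPD replicate 1 Ror2 was at -0.01 and Axin2 at -0.04, and without MI replicate 1 Wnt2b was at -0.30. MI replicate 3 was the lowest MI library for 24 of the 31 genes. In MI+BPD replicates 1 and 2 were each the lowest for 14.

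MI+BPD against sham shares the sham libraries with MI against sham, so the values of both are set side by side and not compared. In MI+BPD 17 of the 31 genes rose, 1 fell and 13 did not pass, while 31.8% of all genes rose and 27.8% fell. The median log2 fold change was 1.21 over the 31 genes and 0.04 over all genes. With MI replicate 1 and MI+BPD replicate 1 left out together 17 rose and 1 fell, a fit for which the share over all genes is not given. With scaling by library totals alone 23 were higher and 0 lower, 86.8% of the calls over all genes were higher (53.4% with TMM) and the median of all genes was 0.57. Of the 22 genes whose sham libraries reached the filter 13 rose, 1 fell and 8 did not pass.

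Of the inhibitors in MI+BPD against sham 6 rose and 1 fell. The log2 fold change was 7.88 ± 0.52 (SE, edgeR adjusted p = 1.4e-05) for Sfrp2 and 6.52 ± 0.34 (SE, edgeR adjusted p = 5.3e-06) for Dkk3. It was 5.31 ± 0.49 (SE, edgeR adjusted p = 6.5e-05) for Frzb and 4.19 ± 0.38 (SE, edgeR adjusted p = 5.4e-05) for Sfrp1. Sfrp4 rose with 3.53 ± 0.95 (SE, edgeR adjusted p = 0.0104), or 2.40 without MI+BPD replicate 1. Dkk2 had a ratio to sham of 19.7 (95% exact binomial interval 5.23 to 166), was at least 8.89-fold higher without sham replicate 2, and had a fitted log2 fold change of 3.57 without sham replicate 3; its change passed (edgeR adjusted p = 0.00307). Wif1 fell with -1.60 ± 0.55 (SE, edgeR adjusted p = 0.0297), but was at -0.61 without sham replicate 3 (adjusted p = 0.191), and its call ended without MI+BPD replicate 2 (0.0679) or 3 (0.0999), with the replicate number as a block (0.0562), with no filter on low counts (0.0645) and with scaling by library totals alone (0.0893).

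Of the 13 receptors 7 rose in MI+BPD against sham and 0 fell. Fzd2 rose with a log2 fold change of 3.004 ± 0.27 (SE, edgeR adjusted p = 5.9e-05), Fzd1 with 2.13 ± 0.25 (SE, edgeR adjusted p = 1.9e-04), and Ror2 with 1.62 ± 0.43 (SE, edgeR adjusted p = 0.00998). Fzd7 rose with 1.32 ± 0.22 (SE, edgeR adjusted p = 0.00102) and Fzd8 with 1.27 ± 0.32 (SE, edgeR adjusted p = 0.00804). Lrp5 rose with 0.84 ± 0.19 (SE, edgeR adjusted p = 0.00445) and Lrp6 with 0.37 ± 0.08 (SE, edgeR adjusted p = 0.00290). Fzd4, Fzd5 and Ror1 did not pass, at -0.20 ± 0.10, 0.19 ± 0.34 and 0.49 ± 0.21, with SE after each ±. Fzd4 was called lower in DESeq2 (-0.24, adjusted p = 0.0470) and higher with scaling by library totals alone (0.33, 0.0288). Ror1 missed the threshold (edgeR adjusted p = 0.0706) and passed in 6 of 20 alternatives: without sham replicate 1 (0.0474) or MI replicate 1 (0.0404), with the replicate number as a block (0.0476), in the fit of the 2 groups alone (0.0415), in limma-voom (0.0319) and with scaling by library totals alone (0.00361).

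Among the ligands 4 of 9 rose in MI+BPD against sham. Wnt9a rose with a log2 fold change of 0.99 ± 0.19 (SE, edgeR adjusted p = 0.00191), and led the ligands per kilobase in both infarcted groups with 3.89 ± 0.613 CPM per kb in MI+BPD, 2.59 ± 0.314 in MI and 1.95 ± 0.454 in sham. In MI it did not differ from Wnt5b (2.22 ± 0.411) or Wnt5a (2.04 ± 0.491) beyond their spread. The change of Wnt9a in MI against sham was 0.41 ± 0.19 (SE, edgeR adjusted p = 0.0748), and it passed without sham replicate 2 (0.61, 0.0174), with upper-quartile scaling (0.0451) and with scaling by library totals alone (0.000484). Wnt11 rose with 0.97 ± 0.27 (SE, edgeR adjusted p = 0.0114). Wnt10b rose with 2.07 ± 0.62 (SE, edgeR adjusted p = 0.0171), a call that ended without sham replicate 2 (0.0636) or 3 (0.0613) or MI+BPD replicate 3 (0.0556), with a change of 2.66 without sham replicate 1. Wnt16 was at least 6.14-fold higher than in sham, and its call (edgeR adjusted p = 0.0245) ended without MI replicate 1 and MI+BPD replicate 1 together (0.0695). Wnt2, Wnt5b, Wnt4 and Rspo1 did not pass, at 1.21 ± 0.59, 0.51 ± 0.21, 4.13 ± 1.95 and 1.36 ± 0.81. Wnt5b missed the threshold (edgeR adjusted p = 0.0554) and passed in 8 of 20 alternatives, at adjusted p-values from 0.00284 to 0.0489, among them without MI replicate 1 (0.0465), without MI+BPD replicate 1 (0.0339), without both (0.0247) and in limma-voom (0.0188). Wnt4 passed in DESeq2 (0.0237) and without MI+BPD replicate 2 (0.0487), Wnt2 with scaling by library totals alone (0.0241), and Rspo1 in the fit of the 2 groups alone (0.0307). Axin2 was at 0.36 ± 0.36 (SE, edgeR adjusted p = 0.418), with a 95% interval of -0.46 to 1.17. Of the 77 other pathway genes 35 rose (45.5%, against 31.8% of all genes) and 14 fell, or 59 and 4 with scaling by library totals alone.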

How the data were processed

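RNA was sequenced in 9 libraries of mouse left ventricle. The authors deposited unnormalized counts, a whole number of reads for each gene symbol and library. STAR is named in the submitters' processing notes, without a version, and so are the builds mm10, GRCm39 and mm39, without a role. The sources used here do not name the counting program, strand setting or annotation, so reads of overlapping or antisense genes cannot be told apart, and genes were identified by symbol. All 9 sample columns were used.

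Testing used edgeR 4.0.16 under R 4.3.3. After filterByExpr with a minimum count of 10, the 15138 remaining genes, with 99.9% of all reads, were scaled by TMM. Group means were fitted to the 9 libraries in 1 robust quasi-likelihood model, which left 6 residual degrees of freedom at a biological coefficient of variation of 0.167. The 2-sided p-values were corrected after Benjamini-Hochberg across the 15138 genes, and calls needed a corrected value under 0.05. SE follow from the F statistic, and intervals are 95%. Exon lengths are from GENCODE M21 and promoter windows from RefSeq GRCm38.p6. No 2 libraries of a group were identical.

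The genes, lists and tests were chosen with earlier results of these data known. Values in every library are given for genes called with an absolute log2 fold change of at least 1 and 1 CPM or more on average in the higher group, and for Axin2, Lrp5 and Lrp6. Of each pathway list up to 3 genes of smallest adjusted p were named, and Ctnnb1, Reck, Tnfrsf19, Ccnd1 and Znrf3 were named after their values were seen. Alternatives were DESeq2 1.42.0, limma-voom (limma 3.58.1), 3 other scalings, no filter or a minimum count of 50, a replicate block, only the groups compared, mitochondrial and haemoglobin genes left out, each library left out, MI replicate 1 and MI+BPD replicate 1 left out together, and an adjusted p under 0.01. The procedure was tested on simulated data in which only a small part of the genes changed. That test does not bear on the choice of scaling where many genes change.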

Additional observations from a re-analysis of the deposited data

How the results depend on the processing

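The 93 fold changes of the 31 genes were recomputed under the alternatives, which gave 1829 values. Of these 44 lost a call, 33 gained one and 7 were called with the opposite sign, among them only Fzd4 in MI against sham called in the TMM fit. All 7 came with scaling by library totals alone: Fzd3 was at 0.54, Fzd4 at 0.40, Fzd6 at 0.60 and Wnt5a at 0.59 in MI against sham, and Fzd3 at 0.40, Fzd4 at 0.33 and Fzd6 at 0.40 in MI+BPD against sham. With that scaling 10488 genes were called higher and 1765 lower in MI against sham and 9131 and 1383 in MI+BPD against sham. Pathway genes then numbered 64 higher and 4 lower, and 59 and 4, and Wnt genes called lower 0 in both. The median log2 fold change of all genes was then 0.81 in MI against sham, 0.57 in MI+BPD against sham and -0.20 in MI+BPD against MI.

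In MI+BPD against MI, DESeq2 called 21 genes higher and 30 lower. Limma-voom called 820 and 243, with 1 Wnt gene higher and 1 lower and 2 pathway genes higher and 1 lower. The Wnt genes called lower numbered 2 in MI+BPD against sham with DESeq2. They numbered 1 in MI against sham and 0 in MI+BPD against sham with no filter and with the stricter filter, 1 in MI against sham with MI replicate 1 and MI+BPD replicate 1 left out together, and 0 in both at an adjusted p under 0.01. Of all genes DESeq2 called 4450 lower in MI+BPD against sham. Genes called lower in MI against sham and in MI+BPD against sham numbered 4360 and 3474 with no filter, and 4241 and 3819 with the stricter filter. With the stricter filter only 23 of the 31 genes and 5 of the 7 inhibitors were tested, and Wif1 was not among them. Beyond that, the cause of these shifts was not tested.

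With 1 library left out, the Wnt genes called in MI against sham numbered 16 to 23 higher and 1 to 2 lower, and in MI+BPD against sham 16 to 19 higher and 0 to 1 lower. Over all genes 5097 to 5639 were then higher and 4381 to 5001 lower in MI against sham. The same counts in MI+BPD against sham were 4118 to 4868 and 3359 to 4470. In MI+BPD against MI the Wnt genes numbered 0 higher and 0 to 1 lower, with 0 to 1126 genes higher, 0 to 227 lower, and 0 to 2 pathway genes higher and 0 to 4 lower. The upper ends in MI+BPD against MI came without MI replicate 3. Depth limits the genes near the filter on low counts.

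Replicate numbers gave no clear sign of paired libraries. Over 9 pairs with the same number the deviations from the group means correlated at -0.16 to 0.19, against -0.28 to 0.21 over pairs with different numbers. The 2 same-number pairs above 0.1 were MI with MI+BPD of replicate 1 and of replicate 2. With 3 libraries a group these correlations cannot exclude pairing. With the replicate block 22 Wnt genes were higher and 2 lower in MI against sham, 0 passed in MI+BPD against MI, and 18 were higher and 0 lower in MI+BPD against sham. Over all genes that block gave 5399 higher and 4655 lower in MI against sham, and 4565 and 3892 in MI+BPD against sham.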
